A study of Mus musculus with 2 samples.

Results

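The replication-dependent histone genes were examined as the protein-coding genes of GENCODE release M21 on GRCm38 whose symbols begin with Hist1h, Hist2h, Hist3h or Hist4h. This rule gave 67 genes among 21755 protein-coding genes on the chromosomes measured. They comprised 6 H1, 18 H2A, 18 H2B, 12 H3 and 13 H4 genes, and 54 of them lay on chromosome 13. No measured value entered the choice, though earlier results of these data were known when it was made. In situ Hi-C, a genome-wide assay of contacts between chromosome segments, had been run with the restriction enzyme DpnII on mature olfactory sensory neurons. The neurons were sorted by their GFP from adult MOR23-GFP mice of mixed sex. These neurons express the odorant receptor gene Olfr16, and the strain is not specified. Replicate 1 held 28000 cells and replicate 2 held 24400 cells, both fixed in 1% formaldehyde, and they form 1 group with no second condition. The data are 7435 boundaries, positions of 5 kb that separate neighbouring stretches of chromosome, which the authors called after combining the replicates.

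Each boundary has a class, Strong or Weak, and a strength score of the authors' caller. Every Strong boundary scores higher than every Weak one, and no boundary scores under 0.200. Values of the separate replicates and the sequencing depth are not part of the list, so replicate error is unknown, and there is no second condition to test against. Members sit side by side and share boundaries, so they are not independent of each other. They are described by counts and medians beside the same measures over all protein-coding genes. The list holds no RNA values, so the identity of the sorted cells was not checked against marker genes here.

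Histones are the proteins around which DNA is wrapped. H2A, H2B, H3 and H4 form the nucleosome core, and H1 binds the linker DNA between nucleosomes. Replication-dependent histone genes are used mainly in S phase, when newly made DNA has to be packaged, and in dividing cells they gather in a nuclear structure called the histone locus body. Their transcripts end in a conserved stem-loop in place of a poly(A) tail, and the stem-loop is bound by the protein encoded by Slbp. Mature olfactory sensory neurons have left the cell cycle.

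The stem-loop was used to check the list, because it is a mark of the class that does not depend on the symbol. A stem-loop match was found within 300 bases after the stop codon in 65 of the 67 members, beginning 21 to 58 bases after it (median 30). Among the other protein-coding genes, 2 of 21603 had such a match (0.00926%). These were H2afx, a variant histone gene, and H2bfm, a gene of the H2B family, both named after the result was seen. The 65 matches comprised 8 different sequences. The 3 commonest, each shown for a member within 10 kb of a boundary, follow from the RefSeq genome of GRCm38.p6, in the direction of transcription, with the arms of the stem in capitals and the loop in lower case.
Hist1h2af, chr13:23534359-23534374, and 40 other members of the H1, H2A, H2B and H3 classes: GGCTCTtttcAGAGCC
Hist1h1t, chr13:23696525-23696540, and 8 other members: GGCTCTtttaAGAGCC
Hist1h4h, chr13:23531458-23531473, and 7 other members, all H4 genes: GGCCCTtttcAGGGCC
The 2 members without a match were Hist2h2be and Hist1h2an. Hist1h2an carried a stem-loop with 1 altered base, 32 bases after the stop codon.
Hist1h2an, chr13: GGCTCTtttcAGAGCT
Counted from the 5′ end of the commonest sequence, this difference is C16T. In Hist2h2be the closest stretch of the window differed from the commonest sequence at 6 positions. Hist2h2be thus lacked this mark of the class. It was kept among the 67 by its symbol alone, and whether it is replication-dependent was not tested.

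The genes fell into 7 loci when members separated by at most 100 kb were joined. On chromosome 13 there were 4 sub-clusters over 2219 kb. The first ran from Hist1h2bl to Hist1h2br (chr13:21715763-21837530, 18 genes) and the second from Hist1h2ah to Hist1h2bj (chr13:22035164-22043676, 5 genes). The largest ran from Hist1h4h to Hist1h1a (chr13:23531050-23764406, 29 genes), and it held all H1 genes except Hist1h1b. The last was the pair Hist1h2ba and Hist1h2aa (chr13:23933773-23934851), which encode the testis forms of H2B and H2A. Chromosome 3 held 10 genes from Hist2h2ab to Hist2h2bb (chr3:96219865-96270132). Chromosome 11 held Hist3h2ba and Hist3h2a (chr11:58948920-58956830), and chromosome 6 held Hist4h4 alone (chr6:136801553-136804415).

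A start within 10 kb of a boundary was found for 14 of the 67 histone genes, 20.9% (exact 95% interval 11.9 to 32.6%, counting error only), beside 12.5% of all 21544 protein-coding genes between the first and last boundary of their chromosome. The interval of the members includes the background share. Counting any part of the gene body turned the order round, with 20.9% of the members against 25.3% of all genes. Only 4 boundaries stood behind the 14 genes, all on chromosome 13. For 11 of these genes the boundary was Weak and for 3 it was Strong. Without the boundary at chr13:23530001-23535000, the count was 9 of 67 (13.4%). Counting 1 start per 5 kb bin gave 7 of 37 bins, 18.9%, beside 12.2% for all genes. Of the 760 other protein-coding genes of chromosome 13, 99 were within 10 kb, 13.03%. The member just inside the limit was Hist1h2aa at 9.46 kb and the one just outside was Hist1h4b at 12.99 kb.

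The median distance to the nearest boundary was 35.6 kb for histone genes (quartiles 16.5 and 87.3 kb) and 57.8 kb for all protein-coding genes (quartiles 25.4 and 105.9 kb). Measured from any part of the gene body, it was 35.5 kb against 39.9 kb. Histone genes are short, with a median length of 539 bp against 17568 bp for all protein-coding genes. A start within 25 kb was found for 25 members, 37.3% against 24.8% of all genes, and within 50 kb for 42, 62.7% against 44.3%. A start within 5 kb was found for 5 of 67 members, a smaller share than the 8.35% of all genes. Starts inside a boundary were no more frequent among the members, at 2 of 67 (2.99%) against 3.29%. With Strong boundaries alone the order turned round: 3 members, 4.48%, lay within 10 kb against 7.94% of all genes, and the median distance was 110.2 kb against 101.7 kb. The boundary nearest to the start was Strong for 43 members (64.2%) and for 62.9% of all genes.

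**Figure D1:**
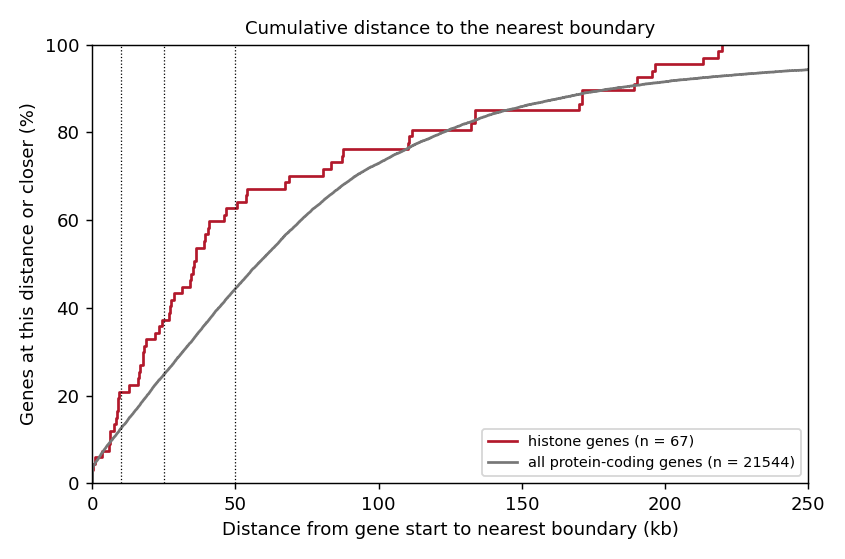
Share of genes, in percent, whose start lies at a given distance or closer to a boundary, against that distance in kb, for the 67 histone genes and all 21544 protein-coding genes, with dotted lines at 10, 25 and 50 kb. The histone curve lies above the other at these limits, with 20.9% against 12.5% at 10 kb and 62.7% against 44.3% at 50 kb.

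The sub-clusters differed widely from one another. All 14 near members belonged to the 29-gene sub-cluster and the testis pair of chromosome 13, with 12 of 29 and 2 of 2 genes, and the other 36 members had none. Median distances were 17.7 kb in the 29-gene sub-cluster, 28.6 kb in the second, 82.0 kb in the first and 192.9 kb on chromosome 3. In all, 14 members lay within 10 kb, 28 between 10 and 50 kb and 25 beyond 50 kb, of which 16 lay beyond 100 kb.

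**Figure D2:**
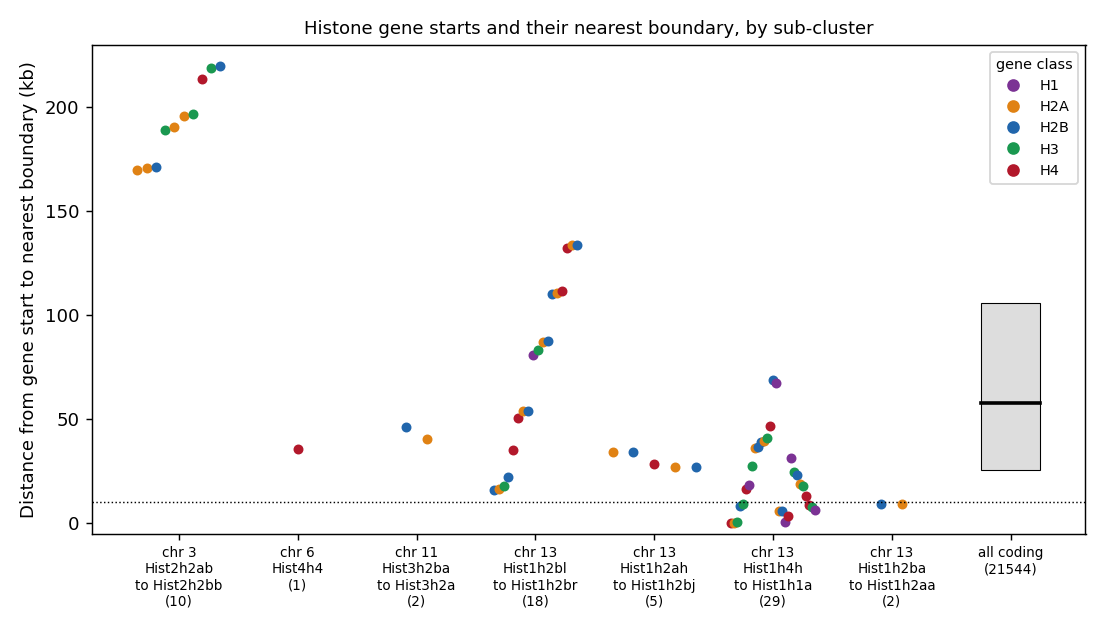
Distance in kb from each histone gene start to its nearest boundary, with genes of each sub-cluster in chromosomal order, coloured by class, and the gene number in parentheses. The bar at the right gives the quartiles (25.4 and 105.9 kb) and median (57.8 kb) of all protein-coding genes. The dotted line marks 10 kb, and the points under it belong to the 29-gene sub-cluster and the testis pair of chromosome 13.

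By class, starts within 10 kb of a boundary were counted for 2 of 6 H1, 3 of 18 H2A, 3 of 18 H2B, 3 of 12 H3 and 3 of 13 H4 genes, beside 12.5% of all protein-coding genes. Their medians were 24.7 kb for H1, 39.9 kb for H2A, 37.8 kb for H2B, 25.9 kb for H3 and 35.1 kb for H4, beside 57.8 kb for all. With these numbers the exact intervals of the 5 shares overlap throughout, from 4.33 to 77.7% for H1 and from 3.58 to 41.4% for H2A, and they include the share of all genes. These intervals give counting error only and treat genes as independent, though members of different classes share boundaries, so the classes were not tested against each other.

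The 29-gene sub-cluster held both boundaries that lay inside any histone locus. The first of these, chr13:23530001-23535000, was Weak with a score of 0.467, at or above 45.0% of the list. It marked the beginning of the array and contained the starts of Hist1h4h, an H4 gene, and Hist1h2af, an H2A gene. Hist1h3g, an H3 gene, started 0.422 kb beyond it, and Hist1h2bh and Hist1h3f, an H2B and an H3 gene, started at 8.39 and 9.05 kb. The 5 starts within 10 kb of this boundary were of H2A, H2B, H3 and H4 genes. No H1 gene was among them, where only 6 of the 67 members are H1 genes.

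The promoters of the genes that start in this boundary are shown because they are the members on which it lies. They are RefSeq promoters of GRCm38.p6, 250 bases before to 50 bases after the start, on the + strand. Capitals mark CCAAT on either strand, which reads ATTGG on the opposite one.
Hist1h4h, chr13:23530794-23531093: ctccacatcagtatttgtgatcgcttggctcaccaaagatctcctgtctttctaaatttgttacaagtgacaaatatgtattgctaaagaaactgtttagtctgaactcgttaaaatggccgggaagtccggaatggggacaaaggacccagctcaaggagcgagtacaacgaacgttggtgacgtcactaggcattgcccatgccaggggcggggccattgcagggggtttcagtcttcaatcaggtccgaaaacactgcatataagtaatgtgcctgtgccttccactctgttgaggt
Hist1h2af, chr13:23533625-23533924: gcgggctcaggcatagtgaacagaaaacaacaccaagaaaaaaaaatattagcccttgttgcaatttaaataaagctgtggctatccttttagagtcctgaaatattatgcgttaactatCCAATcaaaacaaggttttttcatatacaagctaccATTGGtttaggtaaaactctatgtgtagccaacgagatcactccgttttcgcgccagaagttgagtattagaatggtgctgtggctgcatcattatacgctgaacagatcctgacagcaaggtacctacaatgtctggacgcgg
The H2A promoter held CCAAT 2 times and the H4 promoter did not. Of 61 members with a RefSeq promoter, all 49 that were not H4 genes contained CCAAT on some strand, against 3 of 12 H4 genes and 37.4% of 32851 RefSeq promoters. TATAAA was present in 34 of the 61 (55.7%) against 13.6% of all promoters. TTTGCAT, the core of the octamer element, was present in 14 (23.0%) against 4.63%, and 13 of these belonged to H2A or H2B genes. The search covered both strands, and a match describes these letters only. Some H2A and H2B genes start close together in opposite directions and share promoter sequence. The same match can then count for both genes, so these counts are not of independent promoters.

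The second internal boundary, chr13:23690001-23695000, was Weak with a score of 0.212, at or above 3.61% of the list. It overlapped an exon of Hist1h2bc. Starts within 10 kb were those of Hist1h1t at 0.814 kb, which encodes the testis form of H1, Hist1h4c at 3.45 kb, Hist1h2bc at 5.80 kb and Hist1h2ac at 6.05 kb. Hist1h2ac and Hist1h2bc are transcribed away from each other from a shared region, whose 250 bases are printed on the + strand as an example of the family's paired promoters. Capitals mark these 3 motifs on either strand.
Hist1h2ac to Hist1h2bc, chr13:23683949-23684198: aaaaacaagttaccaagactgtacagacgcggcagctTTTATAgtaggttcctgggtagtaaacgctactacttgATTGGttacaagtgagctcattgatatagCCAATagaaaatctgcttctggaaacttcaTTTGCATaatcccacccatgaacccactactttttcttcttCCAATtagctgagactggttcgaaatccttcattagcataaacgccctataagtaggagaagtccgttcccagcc
There were 12 such head-to-head pairs with starts at most 500 bp apart, and each joined an H2A gene to an H2B gene. The starts were 176 to 306 bp apart (median 259.5 bp). The pairs took in 24 members, 35.8%, against 6.27% of all protein-coding genes that start head to head with another one. All 12 shared regions contained CCAAT, 7 contained TATAAA and 5 contained TTTGCAT.

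A Strong boundary lay just beyond the 29-gene sub-cluster. This boundary, chr13:23770001-23775000, scored 2.12, at or above 97.1% of the list, and lay 5.60 kb beyond its last base. It overlapped an exon of Trim38, a gene of the tripartite motif family that starts 0.088 kb from it, on the histone side. Of the histone genes on that side, Hist1h1a, an H1 gene, started 6.34 kb away, Hist1h3a 7.62 kb and Hist1h4a 8.77 kb. These 3 genes were the members within 10 kb of a Strong boundary.

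The first and second sub-clusters lay together between a pair of Strong boundaries. The left one, chr13:21695001-21700000, scored 1.23 (83.8% of the list at or below), contained the start of the olfactory receptor gene Olfr1359 and lay 15.8 kb before Hist1h2bl. The right one, chr13:22070001-22075000, scored 1.82 (94.4%), was intergenic and lay 26.3 kb beyond Hist1h2bj. The nearest coding start on its far side was that of Vmn1r188, a vomeronasal receptor gene, at 9.44 kb. No boundary fell in the 197.6 kb between the 2 sub-clusters, which hold Zfp184, a zinc finger gene, Pom121l2 and Prss16, a protease gene of the thymus. The second and the 29-gene sub-cluster were 1487 kb apart, and 4 boundaries and 36 vomeronasal receptor gene starts lay between them.

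**Figure D3:**
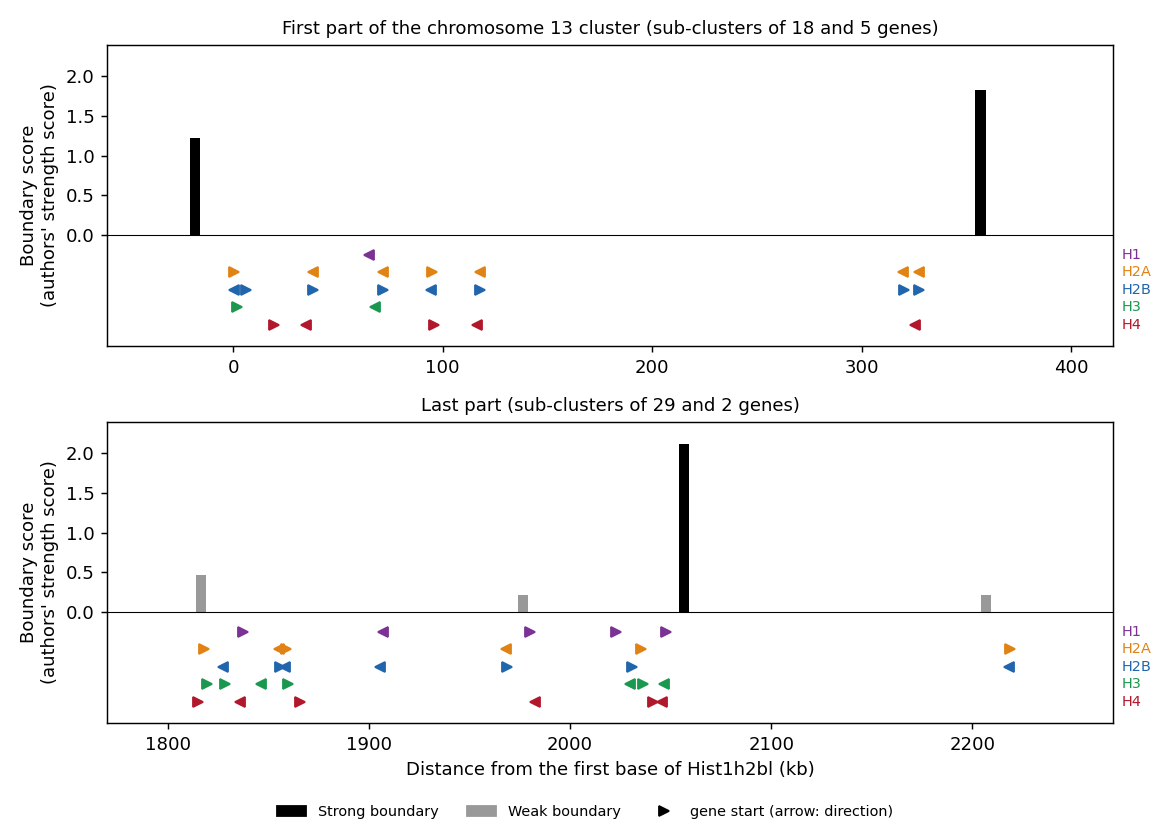
Boundaries (bars, height is the authors' strength score) and histone gene starts (arrows, by class and direction) along chromosome 13, in kb from the first base of Hist1h2bl. Strong boundaries with scores of 1.23 and 1.82 flank the upper group of 23 genes, and in the lower panel Weak boundaries of 0.467 and 0.212 lie inside the group of 29 genes, which ends at a Strong boundary of 2.12.

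The testis pair Hist1h2ba and Hist1h2aa lay outside that Strong boundary, at 9.16 and 9.46 kb from a Weak boundary with a score of 0.218 (chr13:23920001-23925000). That boundary lay in the pseudogene Snrp1c-ps2 and 4.99 kb from Slc17a4, a gene of a phosphate transporter family. Between the pair and the 29-gene sub-cluster were 169.4 kb with Trim38, Slc17a1, Slc17a2, Slc17a3 and Slc17a4.

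Over the whole chromosome 13 cluster there were 8 boundaries from the first to the last histone gene, 3.61 per Mb (exact Poisson 95% interval 1.56 to 7.10, counting error only), where the list as a whole had 2.82 per Mb of chromosome. Of the 8, 2 were Strong, 0.901 per Mb (exact Poisson 95% interval 0.109 to 3.26), where 51.8% of all boundaries were Strong. The share of Strong boundaries was thus lower in the cluster than in the list, on only 8 boundaries. The density of Strong boundaries over the whole list was not computed. A stretch of 1695 kb between adjacent Strong boundaries, from chr13:22075001 to 23770000, held the 29-gene sub-cluster at its right end and 5 Weak boundaries. Its length was at or above 92.7% of the 3834 such stretches, whose median was 395.0 kb. Among the 14 ends of the 7 loci, 5 were within 25 kb of a boundary (35.7%, exact 95% interval 12.8 to 64.9%, counting error only). Of all protein-coding gene starts, 24.8% were within that distance. Both ends of the testis pair counted among the 5 and lay next to the same Weak boundary, so the ends are not independent. Of the 5 ends, 2 were within 25 kb of a Strong boundary.

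The chromosome 3 genes were the farthest from any boundary, and none lay between the first and the last of them. Their nearest boundary was chr3:96045001-96050000, Strong with a score of 0.535, in an exon of Vps45, a gene of vesicle sorting. It lay 169.9 kb from Hist2h2ab at one end of the cluster and 219.8 kb from the start of Hist2h2bb at the other. The 5 most distant members of the family were Hist2h2bb, Hist2h3b at 218.7 kb, Hist2h4 at 213.3 kb, Hist2h3c1 at 196.7 kb and Hist2h2aa1 at 195.5 kb. On the other side the next boundary was 459.9 kb away (chr3:96730001-96735000, Weak, score 0.242), in an intron of Rnf115, a ubiquitin ligase gene.

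The smaller loci lay closer to a boundary. Hist4h4 started 35.6 kb from a Strong boundary with a score of 0.525 (chr6:136840001-136845000), which overlapped an exon of BC049715 and lay 4.55 kb from the start of Smco3. Hist3h2ba and Hist3h2a started 46.1 and 40.3 kb from a Weak boundary with a score of 0.424. On their other side a Strong boundary with a score of 1.77 (chr11:58840001-58845000) overlapped the olfactory receptor gene Olfr311, 103.9 kb from Hist3h2ba.

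Stretches between adjacent boundaries were next compared by their gene content. The 65 histone genes that did not start inside a boundary were distributed over 7 stretches, which made up 0.0689% of the chromosomes' length. The shortest, 75 kb from chr13:23695001 to 23770000, held 13 coding starts, 11 of them histone genes and the others Hfe, an iron homeostasis gene, and Trim38. Among the 28 stretches of that length or shorter the median was 2 coding starts, and the others held at most 8. With 17.3 coding starts per 100 kb it ranked 1 of the 7415 stretches in density, where the median was 0.615. The neighbouring stretch of 155 kb held 16 coding starts, all histone genes, and the stretch of 370.0 kb with the first and second sub-clusters held 26, of which 23 were histone genes. The chromosome 3 stretch was 680.0 kb long and held 33, of which 10 were histone genes. In all 7415 stretches the median was 2 coding starts and 260.0 kb, and the 4 stretches named here were at or above 97.6, 98.5, 99.7 and 99.8% of the list in coding starts. The other 3 stretches with histone genes, those of the testis pair, Hist4h4 and the chromosome 11 genes, held 3, 7 and 9 coding starts and were at or above 74.3, 92.04 and 94.8% of the list. All these ranks, and the density rank of the shortest stretch, count the histone genes themselves. The stretches were chosen for holding histone genes, so the ranks partly follow from that choice and are no evidence about the boundaries.

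**Figure D4:**
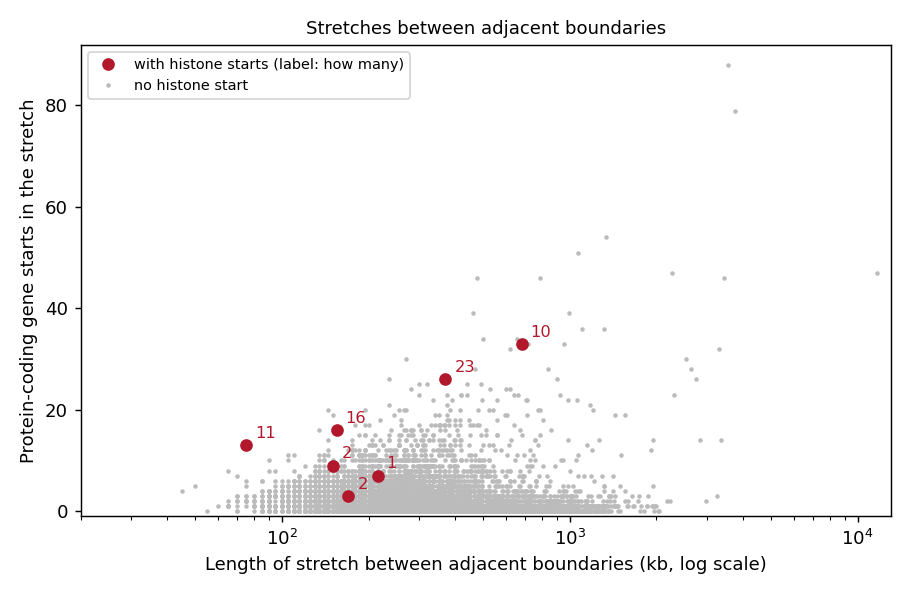
Protein-coding gene starts in each of the stretches between adjacent boundaries, against the length of the stretch in kb on a log scale. Red points are the 7 stretches with histone starts, labelled with their number, and grey points are the others. The stretches with 11, 16, 23 and 10 histone starts hold 13, 16, 26 and 33 coding starts, and the median over all stretches is 2.

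The share of 50 bp words that occur once in the genome was measured in these stretches, since reads from repeated sequence cannot be placed. It was 84.2% in the chromosome 3 stretch, 82.5% in the stretch with the first and second sub-clusters and 86.7 and 94.7% in those of the 29-gene sub-cluster, against 88.5% of words sampled over the chromosomes. The stretches of 680.0 and 370.0 kb were below the overall value, as was the one of 155 kb, and the part of repeated sequence in where boundaries were called was not tested.

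RefSeq lists 408 tRNA genes on the chromosomes measured, and 59 of them (14.5%) lay in stretches that contain a histone start, 34 with the first and second sub-clusters and 25 on chromosome 3. The other 5 stretches held 0, and the 7 together made up 0.0689% of the chromosomes' length. Counted from gene to gene, 46 tRNA genes lay between the second and the 29-gene sub-cluster, a gap that also takes in stretches without histone starts. Transfer RNA genes were chosen after the positions were seen. The first internal boundary, at Hist1h4h, had 3 tRNA genes within 10 kb, where 0.39% of all boundaries had any, and the other 13 boundaries within or next to histone loci had none.

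The 14 boundaries within or next to the histone loci comprised 7 Strong ones and had a median score of 0.503, against 51.8% Strong and a median of 0.520 for all boundaries. Their GC content ran from 39.0 to 56.4% with a median of 41.8%, against a median of 42.6%. None of the 14 had an exact match to the CTCF consensus, the binding sequence of the main insulator protein of mammals, within 10 kb, against 23.1% of all boundaries. A count of 0 of 14 allows a share of up to 21.4% by 3 counts of the total and 23.2% by the exact 95% interval, so a share like that of all boundaries was at the edge of what this number of boundaries can distinguish. Of the 5 boundaries within 25 kb of a member start, 0 had a match within 10 kb and 1 had one within 25 kb. Within 25 kb, 5 of all 14 had a match (35.7%) against 38.1% of all boundaries. The match nearest to the strongest of the 14 lay 17.7 kb beyond it on the + strand and is shown for its position outside the histone array.
Match beyond the Trim38 boundary, chr13:23792676-23792687: CCAGTAGGTGGC

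Other genes of the histone pathway were read from a pair of lists. Of 13 replication-independent histone genes, which mostly supply variant histones outside S phase and include H2afx with its stem-loop, 1 started within 10 kb of a boundary (7.69%, exact 95% interval 0.195 to 36.0%, against 12.5% of all genes), and the median distance was 59.7 kb. That gene was H3f3b, which encodes histone H3.3, at 2.96 kb from a Weak boundary with a score of 0.281 on chromosome 11. The second list held 25 genes for histone mRNA processing, histone gene transcription, the nuclear bodies where these take place, and histone chaperones. Of these, 7 were within 10 kb (28.0%, exact 95% interval 12.1 to 49.4%, against 12.5% of all genes), and the median was 33.2 kb against 57.8 kb.

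All 7 act on messenger RNA and came from the 16 genes of the list that are not chaperones. Of its 9 chaperone genes, 0 started within 10 kb. Both counts stand beside 12.5% of all protein-coding genes, and 9 genes are too few to tell 0 from that share. The list was planned as a whole, without this split. Lsm11, a component of the U7 particle that recognises histone transcripts, Cpsf2, of the cleavage complex, and Ncbp2, of the cap-binding complex, had their starts within Strong boundaries, at scores of 1.16, 0.696 and 0.933. Cpsf3, the endonuclease of the cleavage complex, lay 0.391 kb from a Weak boundary (score 0.327), and Cstf2, a cleavage stimulation factor, 0.814 kb from a Strong one (0.660). Ncbp1 and Sympk, which encode the large cap-binding subunit and a scaffold of the cleavage complex, had starts 8.61 and 9.38 kb from Weak boundaries, whose scores were 0.213 and 0.434. Most of these genes serve messenger RNAs of all kinds.

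The start of Hist1h2be depends on the annotation. Its coding sequence lies 51.0 kb from the nearest boundary, and its annotated transcripts begin in an upstream exon 68.9 kb from another one. Measured from the first coding base of every gene, 14 of 67 members were again within 10 kb, and the median was 35.6 kb.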

How the data were processed

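In situ Hi-C boundaries from 2 biological replicates, combined by the authors, were the only data, on GRCm38 per the submitters' processing notes. The deposited strength score of each boundary is the authors' own. Its formula is not stated, nor is the caller, and it served only to describe and rank boundaries within the list. Read depth is unknown. The members and lists were chosen with earlier results of these data known.

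Distances ran from a gene's 5′ end (GENCODE M21) to the nearest edge of a boundary, 0 inside it, over 21544 protein-coding genes. Another 211 lay beyond the outermost boundaries. Intervals are exact at 95%. No hypothesis test was made. Genes were named where they were the first or last member of a sub-cluster, a member within 10 kb, among the 5 farthest members, the coding start nearest to a boundary, or on another histone list and within 10 kb. Other genes were named after their values were seen: those with unusual stem-loops, Hist1h4b, Hist1h2be, and non-histone genes within or between sub-clusters. Hist1h1b and the genes that a boundary overlaps were also named outside the rule. Promoters, tRNA genes and genome sequence were RefSeq's for GRCm38.p6. The CTCF consensus and stem-loop consensus were searched as exact patterns, in scripts tested on simulated data (Python 3.11.15, NumPy 2.4.6, SciPy 1.17.1). Alternatives changed the window, class, gene start, gap and loci included. The gene annotation of 1 boundary is not reported here.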

Additional observations from a re-analysis of the deposited data

How the results depend on the processing

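The share of histone genes within 10 kb of a boundary, 20.9%, depended on the limit and the boundary class. It was 2.99% inside boundaries, 37.3% within 25 kb, 62.7% within 50 kb and 4.48% with Strong boundaries only. Without the chromosome 13 cluster it was 0.0% (0 of 13, exact upper limit 24.7%), against 12.4% of all genes. Leaving out each of the 4 boundaries in turn gave 13.4 to 17.9%, the lowest without chr13:23530001-23535000. Counting any part of the gene body left the members at 20.9% and moved all genes to 25.3%, which turned the order round. The median distance of 35.6 kb became 110.2 kb with Strong boundaries only and 189.1 kb without the chromosome 13 cluster. Sub-cluster ends within 50 kb of a boundary came to 78.6%, beside 44.3% of all protein-coding gene starts. The density in the chromosome 13 cluster was 0.901 per Mb with Strong boundaries only. These were 2 of its 8 boundaries, where 51.8% of all boundaries were Strong. Starts from the shortest coding transcript or the first coding base, chosen after seeing the data, both gave 20.9%. No paired analysis was possible because the list combines both replicates. Leaving out a replicate was not possible for the same reason, and the precision of each boundary is unknown.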
